A study of Mus musculus with 15 samples.

Results

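The genes described here are the amino acid and peptide transporters of the mouse kidney, chosen by name as every gene whose symbol starts with Slc1a, Slc3a, Slc6a, Slc7a, Slc15a, Slc36a, Slc38a or Slc43a. The rule gave 72 genes of the 33058 gene names in the table, of which 68 are transporters and 4 (Slc7a6os, Slc6a19os, Slc36a1os and Slc36a3os) are genes named for lying opposite one. Kidney RNA of 15 male C57BL/6 mice (C57BL/6J in the study's methods) on standard chow was sequenced, with 1 library for each mouse and 5 mice each at 3 months (young), 12 months and 24 months (old) of age. Sample titles start with 3M at all 3 ages, so the age came from the age label. No group carried a transgene or a treatment. The study's methods state that the kidney not used for histology was cut into several parts and that leftover tissue was sequenced. Which region of the kidney each part held is not given. A gene's level was summed from the FPKM of its transcripts, the fragments on each kilobase of a transcript relative to the depth of the library, and the ages were compared in pairs with limma on log2(FPKM + 1). A gene was called higher or lower, and is said to have risen or fallen, at an unadjusted p under 0.05. The adjusted p printed is that of Benjamini and Hochberg over all genes, which few of the calls passed.

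The kidney filters free amino acids and takes nearly all of them back in the proximal tubule. Carriers of the brush border bring them into the cell, and exchangers and uniporters of the basolateral membrane release them to the blood. Several of these carriers are pairs of a light chain, which moves the amino acid, and a heavy chain, which brings the light chain to the membrane: Slc3a1 (rBAT) is the heavy chain on the brush border and Slc3a2 (4F2hc) the one on the basolateral side. Loss of SLC3A1 or SLC7A9 causes cystinuria, loss of SLC7A7 lysinuric protein intolerance and loss of SLC6A19 Hartnup disorder.

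Libraries held 5.03 to 6.13 Gb of aligned bases at 3 months, 5.84 to 8.03 at 12 months and 6.07 to 7.33 at 24 months. Genes above 0 numbered 23354 to 24198 in the young mice and 24462 to 25435 in the older mice, without overlap. The proximal tubule markers Lrp2, Cubn, Slc34a1, Slc5a2, Slc5a12, Slc22a6 and Kap summed to 6433 to 11302 FPKM at 3 months, 8293 to 11055 at 12 months and 5784 to 8690 at 24 months. Kap made up most of these sums, with means of 6829, 7900 and 5839 FPKM at the 3 ages. Each of the others lay at 50.6 FPKM or more in every mouse, so the labelled tissue carried its defining markers. In RNA of mixed tissue, fewer cells of a type in the part sequenced and less RNA per cell cannot be told apart. The labels do not say whether mice of an age shared a cage or litter, and p-values measure the spread between these samples.

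In old kidneys the basolateral exchanger subunits Slc7a8, Slc3a2 and Slc7a7 were lower than in young ones, together with the system A carrier Slc38a2 and the neutral amino acid carrier Slc6a15. The Slc7a7 call was lost in 11 of 18 alternative analyses. The cystine carrier Slc7a9 and the serotonin transporter Slc6a4 were higher. On transcripts matching the reference alone, both turned below 0 (log2 fold change -0.24 and -0.084) and neither was called. The most abundant members, Slc7a13, Slc6a6 and Slc3a1, did not pass the test. Of 70 members tested at 24 against 3 months, 9 were called higher (12.9%) and 5 lower (7.14%). Of all 31755 genes tested, 11.4% were called higher and 3.47% lower, so the share of higher members lay near the background and the share of lower members above it. Among the 13360 genes with a mean of at least 1 FPKM, 12.4% were called higher and 6.35% lower, and 6 and 5 of the 43 members at that level were. The median log2 fold change was 0.00 over the 70 members and 0.02 over all genes. With quantile normalization in place of FPKM scaling the split of all genes moved from 3624 higher and 1101 lower to 2176 and 1758, and that of the members from 9 and 5 to 5 and 5.

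At an adjusted p under 0.05, 2 members were called (2.86%), Slc7a8 lower and the very low Slc1a7 higher, against 1.22% of all genes. None of the 70 had a log2 fold change above 1 with a p under 0.05, against 0.523% of all genes. In 7 members (10%) the range of the 5 old mice was clear of that of the 5 young mice, against 4.73% of all genes, and these were Slc3a2, Slc7a8, Slc6a15, Slc7a9, Slc6a4, Slc38a4 and Slc1a7.

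Promoter sequence is shown for 3 of the genes called lower in old against young mice, 2 of them light chains of the same heavy chain. Of the 3, only Slc38a2 was also called lower at 12 against 3 months. Whether they share a regulator was not tested. The runs are bases 250 to 61 before the RefSeq gene start in GRCm38.p6, all on the minus strand and printed 5′ to 3′, with each CG pair in capitals. They lie at chr14:54781947-54782136 for Slc7a8, chr14:54410264-54410453 for Slc7a7 and chr15:96699789-96699978 for Slc38a2, outside annotated exons in GENCODE M21, and the Slc7a7 run lies within the span of that gene.
Slc7a8: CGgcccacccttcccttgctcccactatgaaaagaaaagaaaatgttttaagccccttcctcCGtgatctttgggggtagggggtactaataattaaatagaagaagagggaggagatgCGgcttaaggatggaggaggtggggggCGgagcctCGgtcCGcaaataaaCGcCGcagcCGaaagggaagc
Slc7a7: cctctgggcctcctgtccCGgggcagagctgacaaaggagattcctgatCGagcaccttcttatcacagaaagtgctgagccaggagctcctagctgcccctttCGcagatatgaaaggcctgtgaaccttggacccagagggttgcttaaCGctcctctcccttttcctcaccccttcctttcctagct
Slc38a2: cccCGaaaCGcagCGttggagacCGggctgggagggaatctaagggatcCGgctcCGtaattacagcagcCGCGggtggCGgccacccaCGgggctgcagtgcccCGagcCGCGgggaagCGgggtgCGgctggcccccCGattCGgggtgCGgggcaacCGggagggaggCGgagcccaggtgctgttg
Over the full 250 bases before the start, Slc38a2 held 30 CG pairs and 72.0% G and C, Slc7a8 held 14 and 55.6%, and Slc7a7 held 6 and 55.2%. The median over 32851 promoter windows of this length was 6 CG pairs and 52.4% G and C. The letters TGATGCAA (amino acid response element), CAAAGTCCA (HNF4), GTTAAT (part of the HNF1 site), TGACGTCA (cAMP response element), CACGTG (E-box) and TATAAA (the box near many start sites) were searched on both strands. None was found in the windows of Slc7a8, Slc7a7, Slc38a2, Slc3a2 or Slc7a9. Bases outside these windows, introns among them, were not searched, so the search cannot say whether the genes hold such letters elsewhere. Of all windows, 0.791%, 0.384%, 6.43%, 1.55%, 6.02% and 12.4% held these letters, in the same order.

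Levels differed widely among the members. At least 10 FPKM on average was reached by 22 members, 21 lay between 1 and 10, 12 between 0.1 and 1, and 17 below 0.1. The 10 most abundant members carried 69.4% of the summed FPKM, and the top 3 carried 39.6%. The summed level was 1157 ± 109 FPKM at 3 months, 1089 ± 78.9 at 12 months and 1174 ± 79.1 at 24 months (SD, n = 5 each). The ranges overlapped, from 990 to 1284, 991 to 1190 and 1049 to 1262 FPKM.

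**Figure D1:**
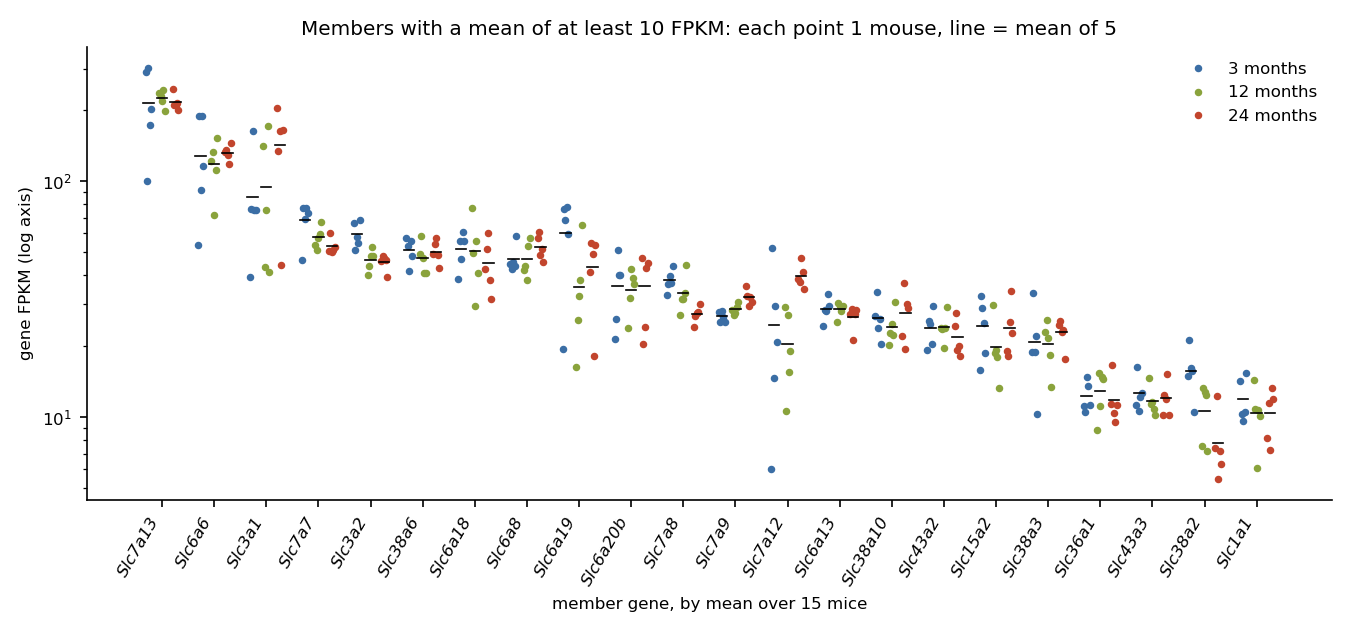
Gene FPKM on a log axis for the 22 members with a mean of at least 10 FPKM, ordered by their mean over 15 mice; each point is 1 mouse, coloured by age, and the black line is the mean of 5 mice. Slc7a13 stands highest at 218 FPKM on average, and Slc3a1, Slc6a19 and Slc7a12 scatter most widely within an age.

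On the brush border, Slc7a13 (AGT1, an aspartate, glutamate and cystine carrier of the late proximal tubule) had the highest level of all members. It read 290, 99.8, 303, 173 and 201 FPKM in the young mice, 237, 228, 219, 243 and 199 at 12 months and 247, 211, 210, 215 and 201 in the old mice. The young mice spread on both sides of all others. The log2 fold change of old against young was 0.12 ± 0.28 (SE), with an adjusted p of 0.85. The late proximal tubule markers Slc22a7, Cyp7b1, Slc22a30 and Acsm3 had 0 of 4 genes called at this comparison with a median log2 fold change of -0.56, and their sum ranged from 126 to 399 FPKM in the young and 153 to 202 FPKM in the old mice.

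Slc7a9 (b0,+AT, the light chain of the cystine and dibasic amino acid exchanger) was the only member of the 12 on the brush border that was called in old against young mice. It read 28, 25.3, 28.2, 26.7 and 25.3 FPKM at 3 months, 28.3, 27.1, 27.5, 29.2 and 30.7 at 12 months and 36, 32.5, 29.5, 32.1 and 30.7 at 24 months. All old mice lay above all young mice. Its log2 fold change was 0.26 ± 0.07 (SE), with an adjusted p of 0.10 in limma. Its most abundant transcript held 14.8% of its FPKM, and on reference-matching transcripts alone the log2 fold change turned to -0.24 and was not called. As FPM (FPKM times transcript length in kilobases, summed over the gene) it was 0.42 (adjusted p = 0.18) and was called.

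Slc3a1, the heavy chain that Slc7a9 needs, read 39.2, 76.3, 163, 75.1 and 75.3 FPKM in the young mice and 204, 134, 164, 43.9 and 165 in the old mice. The 12-month-old mice read 141, 43.3, 75.5, 171 and 41.3 FPKM. Values fell into a high and a low set at each age, and the difference of old against young, a log2 fold change of 0.70 ± 0.46 (SE), did not pass (adjusted p = 0.53). The set followed which transcripts StringTie filled. Transcripts shorter than 3 kb carried most of the FPKM in 1 of 5 young, 2 of 5 12-month-old and 4 of 5 old mice, and in those mice the sum was 134 to 204 FPKM. Where transcripts of 3 kb or more carried it, the sum was 39.2 to 76.3 FPKM. FPKM divides by length, so the same reads give a lower value on a longer transcript. Without that division, as FPM, Slc3a1 read 385 to 504 in the young mice and 411 to 635 in the old mice, with a log2 fold change of 0.03 (adjusted p = 0.93). The summed transcripts, 3 of 4 of them assembled, spanned chr17:84956741-85076630, beyond the annotated gene at chr17:85028376-85064236. FPM can thus hold reads from outside the annotated gene, and their part was not tested. The pooled SD within ages was 0.84 on the log2 FPKM scale and 0.20 on the log2 fragments scale.

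**Figure D2:**
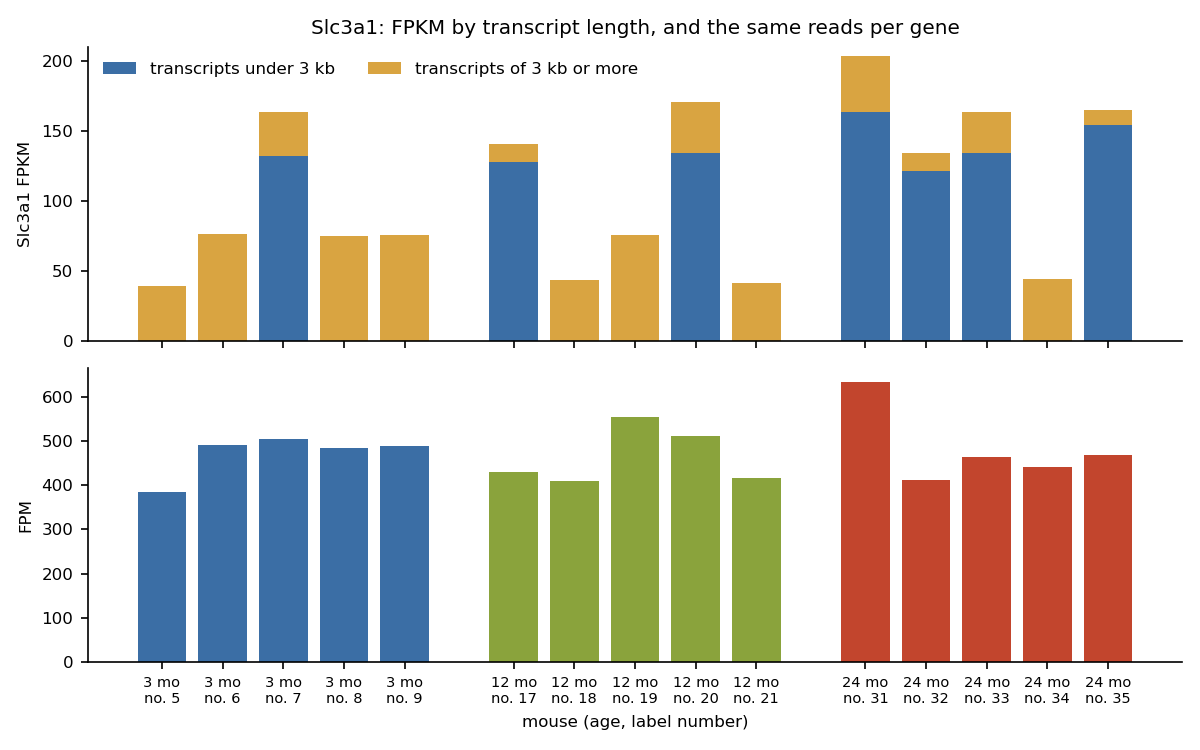
Slc3a1 in each of the 15 mice: top, FPKM split into transcripts under 3 kb (blue) and of 3 kb or more (yellow); bottom, FPM of the gene, coloured by age. Summed FPKM ranges from 39.2 to 204 and follows the share on short transcripts, while FPM range from 385 to 635.

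The neutral amino acid carriers of the brush border did not pass. Slc6a19 (B0AT1, the main sodium-coupled carrier for neutral amino acids) read 19.4, 76.1, 68.3, 77.3 and 59.6 FPKM in the young mice and 41.3, 54.4, 48.9, 18.1 and 53.7 in the old mice, with a log2 fold change of -0.42 ± 0.43 (SE) and an adjusted p of 0.67, or -0.20 in FPM (adjusted p = 0.86). The groups overlapped over most of their range. Slc6a18 (B0AT3, a carrier for glycine and alanine) had 51.6 ± 8.98 FPKM in young and 44.8 ± 11.2 in old mice (SD, n = 5), with an adjusted p of 0.66. Assembled transcripts held 84.0% of the Slc6a18 sum. Its transcripts spanned chr13:73659852-73700811, past the annotated Slc6a18 (chr13:73661752-73678023) and into Slc6a19 (chr13:73679745-73704865) on the same strand. The sum may thus hold reads of Slc6a19, which was not tested. Slc6a20b, a carrier for proline and other imino acids, had 35.8 ± 12 and 35.9 ± 12.6 FPKM. In FPM, Slc6a20b had a log2 fold change of 0.38 (adjusted p = 0.20) and Slc1a1 (EAAC1, the glutamate and aspartate carrier) one of -0.48 (adjusted p = 0.22), both called, against -0.01 and -0.19 on the FPKM scale, where neither was called.

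The proton-coupled carriers of the brush border spanned a wide range of levels. Slc15a2 (PEPT2, which takes up di- and tripeptides with high affinity) had 24.2 ± 6.99 FPKM at 3 months, 19.8 ± 6.14 at 12 months and 23.9 ± 6.41 at 24 months. Its low-affinity relative Slc15a1 (PEPT1) lay between 0.104 and 0.354 FPKM in all 15 mice. Slc36a2, a proton-coupled carrier for glycine and proline, lay between 0.0111 and 0.684 FPKM. None of the 3 was called in any comparison.

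On the basolateral side, 3 of 6 members were lower in old mice and none was higher, against 3.47% and 11.4% of all genes. The median log2 fold change of the 6 was -0.23. The heavy chain Slc3a2 (chr19:8706882-8723369, minus strand, ENSMUSG00000010095) read 66.4, 51.2, 58.2, 54.4 and 68.4 FPKM at 3 months, 40, 43.5, 48.3, 52.3 and 48.1 at 12 months and 45.7, 48, 47, 46.2 and 39 at 24 months. All old mice lay below all young ones, and 1 of the 12-month-old mice lay inside the young range. The log2 fold change was -0.39 ± 0.10 (SE) at 24 months (adjusted p = 0.093) and -0.35 ± 0.10 at 12 months (adjusted p = 0.17), in comparisons that share the 3-month-old mice.

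Slc7a8 (LAT2, the light chain that exchanges neutral amino acids across the basolateral membrane; chr14:54722209-54781946, minus strand, ENSMUSG00000022180) had the smallest p of the members that fell. It read 33, 36.7, 39.5, 37 and 43.8 FPKM in the young mice, 27, 31.7, 31.7, 33.7 and 43.9 at 12 months and 24, 26.7, 27.5, 27.8 and 30.1 in the old mice. All old mice lay below all young mice, and the 12-month-old mice spanned both. The log2 fold change of old against young was -0.46 ± 0.09 (SE), with an adjusted p of 0.039, and -0.52 in FPM. Against 12 months the old mice were lower by a log2 fold change of -0.28 ± 0.12 (adjusted p = 0.76), a call that was lost with TPM, with quantile normalization and without any 1 of old replicates 31 to 34 or 12-month replicates 18 to 21.

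Slc7a7 (y+LAT1, the light chain that releases arginine and lysine; chr14:54369442-54417780, minus strand, ENSMUSG00000000958) read 46.2, 76.8, 68.9, 77 and 73.4 FPKM in the young mice and 50.8, 60.2, 49.9, 51.2 and 52.3 in the old mice. At 12 months it had 57.7 ± 6.05 FPKM. One young mouse lay below every old mouse and the other 4 lay above every old mouse. The log2 fold change was -0.35 ± 0.14 (SE; adjusted p = 0.28), and of the 10 fits that left out 1 mouse the call held in only those without old replicate 32 or young replicate 5. The call was also lost with TPM, with quantile normalization and on reference-matching transcripts alone.

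The other basolateral carriers were not called. Slc38a3 (SNAT3, a glutamine carrier that serves ammonia formation) had 20.7 ± 8.44 FPKM in young and 22.8 ± 3.13 in old mice. Slc43a2 (LAT4, a uniporter for branched-chain amino acids, phenylalanine and methionine) had 23.9 ± 4.22 and 21.9 ± 4.02 FPKM. A pair of genes outside the name rule also take part in amino acid reabsorption. Slc16a10 (TAT1, the basolateral uniporter for aromatic amino acids) had 19.8 ± 3.44 FPKM at 3 months, 13.3 ± 0.806 at 12 months and 12.6 ± 0.759 at 24 months, with a log2 fold change of -0.60 ± 0.11 (SE) in old against young mice and an adjusted p of 0.042. Tmem27 (collectrin, which brings Slc6a19 and Slc6a18 to the membrane) had 217 ± 37.6 and 157 ± 47.5 FPKM in young and old mice, with a log2 fold change of -0.48 ± 0.20 (adjusted p = 0.30). Of the 4 accessory proteins and other carriers reported here (Tmem27, Slc16a10, Pdzk1, Slc9a3r1), 2 were lower and 0 higher at this comparison, against 3.47% and 11.4% of all genes.

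Some markers of the proximal tubule were called lower beside these genes. Of its 7 markers, 2 were lower in old mice and 0 higher, namely Slc5a2 (SGLT2, the glucose carrier of the early proximal tubule) with a log2 fold change of -0.56 ± 0.13 (adjusted p = 0.070) and the lactate carrier Slc5a12 with -0.43 ± 0.17 (adjusted p = 0.27). The others were not called, with log2 fold changes of -0.14 for Lrp2, -0.083 for Slc34a1, -0.036 for Slc22a6, -0.22 for Kap and 0.13 for Cubn. The median of the 7 was -0.14, and of all genes 3.47% were called lower and 11.4% higher. The part of these markers in the fall of the basolateral members was not tested.

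Ratios within a library do not depend on its scaling. In old against young mice, 8 ratios of partner genes were compared by the exact permutation test (2-sided), whose smallest p with 5 against 5 mice is 0.00794, and none passed. Of these, 7 are reported here. The ratio Slc7a8/Slc3a2 was 0.643 ± 0.0859 in young and 0.608 ± 0.0959 in old mice (exact permutation p = 0.54, adjusted p = 0.72 over the 8). Slc7a7/Slc3a2 was 1.17 ± 0.317 and 1.17 ± 0.118 (exact permutation p = 0.89, adjusted p = 0.90). Slc7a9/Slc3a1 was 0.382 ± 0.199 and 0.303 ± 0.240 (exact permutation p = 0.44), and in FPM its log2 difference was 0.40 with the smallest p the design allows, an adjusted p of 0.063. The other 4 of the 7 had adjusted p-values of 0.72 or 0.90.

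**Figure D3:**
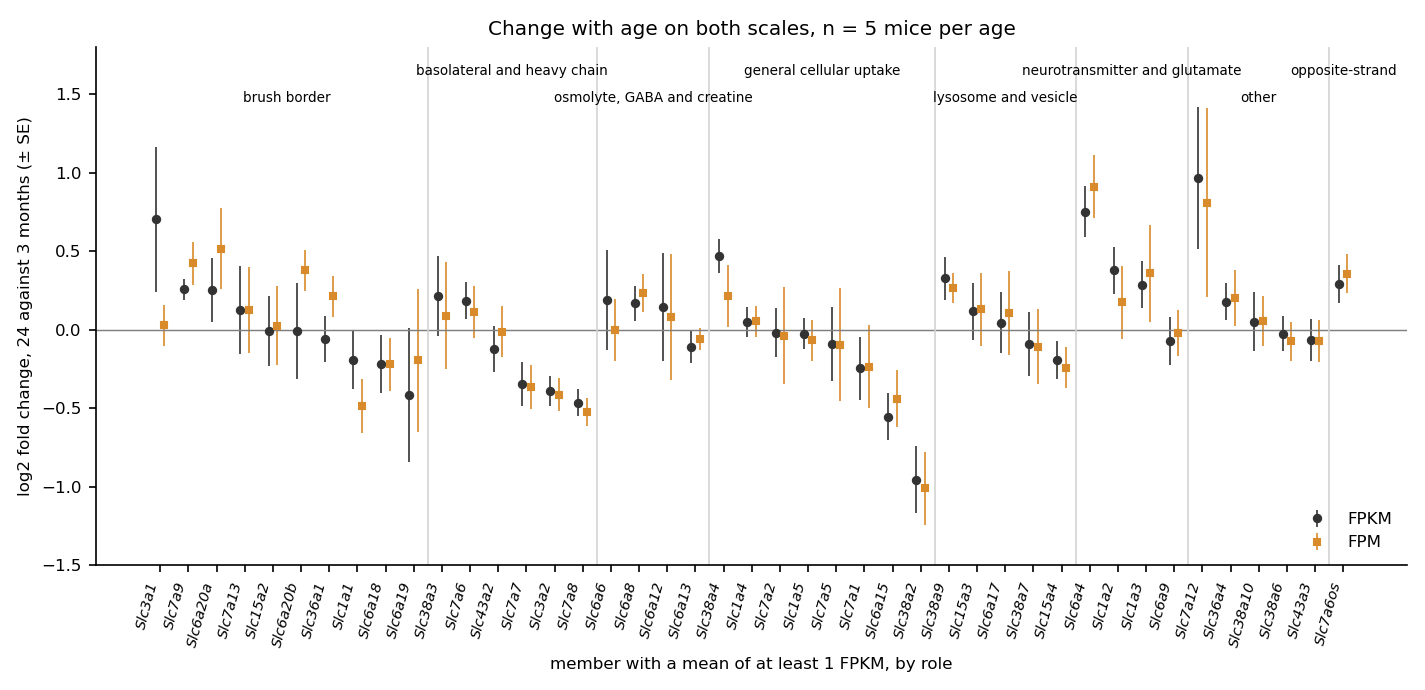
Log2 fold change of old against young mice with its SE for the members with a mean of at least 1 FPKM, grouped by role, on the FPKM scale (black circles) and as FPM (orange squares), n = 5 mice per age. Slc7a7, Slc3a2, Slc7a8, Slc6a15 and Slc38a2 lie below 0 on both scales, and Slc3a1 lies at 0.70 on the first and 0.03 on the second.

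Carriers of osmolytes, GABA and creatine were among the most abundant members and none was called at any age. Slc6a6 (TauT, the taurine carrier) read 53.5, 189, 91.8, 188 and 116 FPKM in the young mice and 133, 135, 129, 118 and 146 in the old mice. The old mice lay within the young range, and the log2 fold change was 0.19 ± 0.32 (SE; adjusted p = 0.80), or -0.0014 in FPM. Slc6a8, the creatine carrier, had 46.9 ± 6.73 and 52.8 ± 6.22 FPKM in young and old mice. Slc6a13 (GAT2, a carrier for GABA and taurine) had 28.7 ± 3.20 and 26.6 ± 3.05 FPKM, and Slc6a12 (BGT1, the betaine carrier of the medulla) had 1.38 ± 1.23 and 1.42 ± 0.623 FPKM. Slc38a6 (SNAT6, an orphan of the system A and N family), the sixth most abundant member, had 51.2 ± 6.42, 47.2 ± 7.3 and 50.3 ± 5.64 FPKM at the 3 ages and was not called.

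Among the 15 carriers for general cellular uptake, 2 were lower and 2 higher in old mice, against 3.47% and 11.4% of all genes. Slc38a2 (SNAT2, the system A carrier whose transcription rises when amino acids are short; chr15:96687392-96699730, minus strand) read 14.9, 21.3, 16.2, 15.7 and 10.5 FPKM at 3 months, 7.54, 13.2, 12.7, 12.4 and 7.16 at 12 months and 7.38, 12.3, 5.45, 7.19 and 6.32 at 24 months. Of the 5 old mice, 4 lay below all young mice and 1 lay inside their range. Its log2 fold change, -0.95 ± 0.22 (SE; adjusted p = 0.071), was the largest fall among the members, and at 12 months it was -0.54 ± 0.22 (adjusted p = 0.30), a call lost on reference-matching transcripts alone and without any 1 of young replicates 5 to 8 or 12-month replicates 17 and 21.

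Slc6a15 (B0AT2, a carrier for branched-chain amino acids and proline; chr10:103367783-103419377, plus strand) read 14.3, 17, 11, 10.8 and 10.8 FPKM in the young mice, 7.97, 6.42, 8.18, 5.3 and 6.6 at 12 months and 6.42, 7.75, 10.4, 8.77 and 8.39 in the old mice. Neither older group overlapped with the young mice. The log2 fold change was -0.79 ± 0.15 (SE; adjusted p = 0.070) at 12 months and -0.55 ± 0.15 (adjusted p = 0.12) at 24 months.

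Slc38a4 (SNAT4, a system A carrier best known from the liver) read 0.945, 1.28, 0.874, 0.888 and 0.832 FPKM in the young mice, 2.26, 1.59, 2.47, 2.05 and 1.37 at 12 months and 1.46, 1.47, 1.87, 2.04 and 1.75 in the old mice. Both older groups lay above all young mice. Its log2 fold change was 0.58 ± 0.13 (SE) at 12 months (adjusted p = 0.10) and 0.47 ± 0.11 at 24 months (adjusted p = 0.076). In FPM these were 0.44 (adjusted p = 0.46) and 0.22 (adjusted p = 0.68), which were not called. The other member of this group that was higher, Slc6a14 (ATB0,+, a broad carrier for neutral and basic amino acids), averaged 0.138 FPKM, and its call was lost without old replicate 32 or 33 or young replicate 5, 7, 8 or 9.

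Genes of the amino acid response, which share regulators with Slc38a2, were read from a list of 9 (Atf4, Asns, Ddit3, Trib3, Sesn2, Chac1, Psat1, Phgdh, Eif2ak4). In old against young mice 1 was lower and 0 were higher, against 3.47% and 11.4% of all genes. The median log2 fold change of the 9 was -0.35. Psat1, the aminotransferase of serine synthesis, fell from 16.5 ± 5.46 to 7.04 ± 1.49 FPKM, with a log2 fold change of -1.09 ± 0.21 (SE) and an adjusted p of 0.043. Asns, the asparagine synthetase that responds to the same signal, had 2.47 ± 0.744 and 2.44 ± 0.476 FPKM. Atf4, the transcription factor of the response, had 8.39 ± 1.91 and 5.52 ± 4.50 FPKM (adjusted p = 0.41).

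Of the 9 brush border and extracellular peptidases, which release amino acids from filtered peptides, 1 was lower in old mice and 0 were higher, against 3.47% and 11.4% of all genes. The lower one was Ace (angiotensin-converting enzyme), with a log2 fold change of -0.34 ± 0.14 (adjusted p = 0.29). The most abundant of them, Mep1a (a subunit of meprin), had 263 ± 19.8 and 309 ± 34.6 FPKM in young and old mice and was not called. Of 5 genes of lysosomal amino acid sensing, 1 was lower, Flcn (folliculin), with a log2 fold change of -0.28 ± 0.13 (adjusted p = 0.34).

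Members of the lysosome and of transmitter uptake were at a few FPKM or less. Slc38a9, the arginine sensor of the lysosomal membrane, had 6.47 ± 0.752 FPKM at 3 months, 8.17 ± 1.05 at 12 months and 8.48 ± 1.92 at 24 months, and was called higher at both older ages (adjusted p = 0.24 and 0.30), at 24 months not without old replicate 33 or 35 or young replicate 5, 8 or 9. On reference-matching transcripts alone its log2 fold change of old against young was -0.011 and was not called. Slc6a4, the serotonin transporter, read 1.1, 2.91, 1.6, 2.47 and 2 FPKM in the young mice, 3.59, 3.54, 3.57, 2.67 and 3.46 at 12 months and 4.3, 4.45, 3.82, 3.47 and 3.83 in the old mice. Every old mouse lay above every young one. The log2 fold change was 0.75 ± 0.16 (SE; adjusted p = 0.063), and on reference-matching transcripts alone it was -0.084 and not called, and an assembled transcript described later held much of the difference.

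Of the 10 transmitter and glutamate carriers, 4 were called higher in old mice and none lower, against 11.4% and 3.47% of all genes. Besides Slc6a4 these were Slc1a2 (GLT1, the glial glutamate carrier), Slc1a7 (EAAT5, the glutamate carrier of the retina) and Slc6a7 (PROT, the brain proline carrier). Slc1a2 had 2.45 ± 0.707 FPKM in young and 3.42 ± 0.415 in old mice (adjusted p = 0.27), with a log2 fold change of 0.18 (adjusted p = 0.74) in FPM, and its call was lost without old replicate 31 or 32 or young replicate 5, 6 or 7. Slc1a7 had 0.0441 ± 0.0281 and 0.251 ± 0.0911 FPKM with an adjusted p of 0.038 and a log2 fold change of 0.26, or 0.57 in FPM (adjusted p = 0.074), and Slc6a7 had 0.0209 ± 0.0158 and 0.0557 ± 0.0276 FPKM. Both were close to the lower end of the scale. The young libraries held fewer genes above 0, and the part of this in the calls of Slc1a7, Slc6a7 and Slc6a14 was not tested. The call of Slc6a7 was lost without old replicate 32, 33 or 34 or young replicate 5, 6 or 8. Slc7a6os, which lies beside the y+LAT2 gene Slc7a6, had 4.12 ± 0.619, 5.37 ± 0.578 and 5.28 ± 0.840 FPKM at the 3 ages and was called higher at both older ages, at 24 months not without old replicate 31, 34 or 35 or young replicate 5, 8 or 9.

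**Figure D4:**
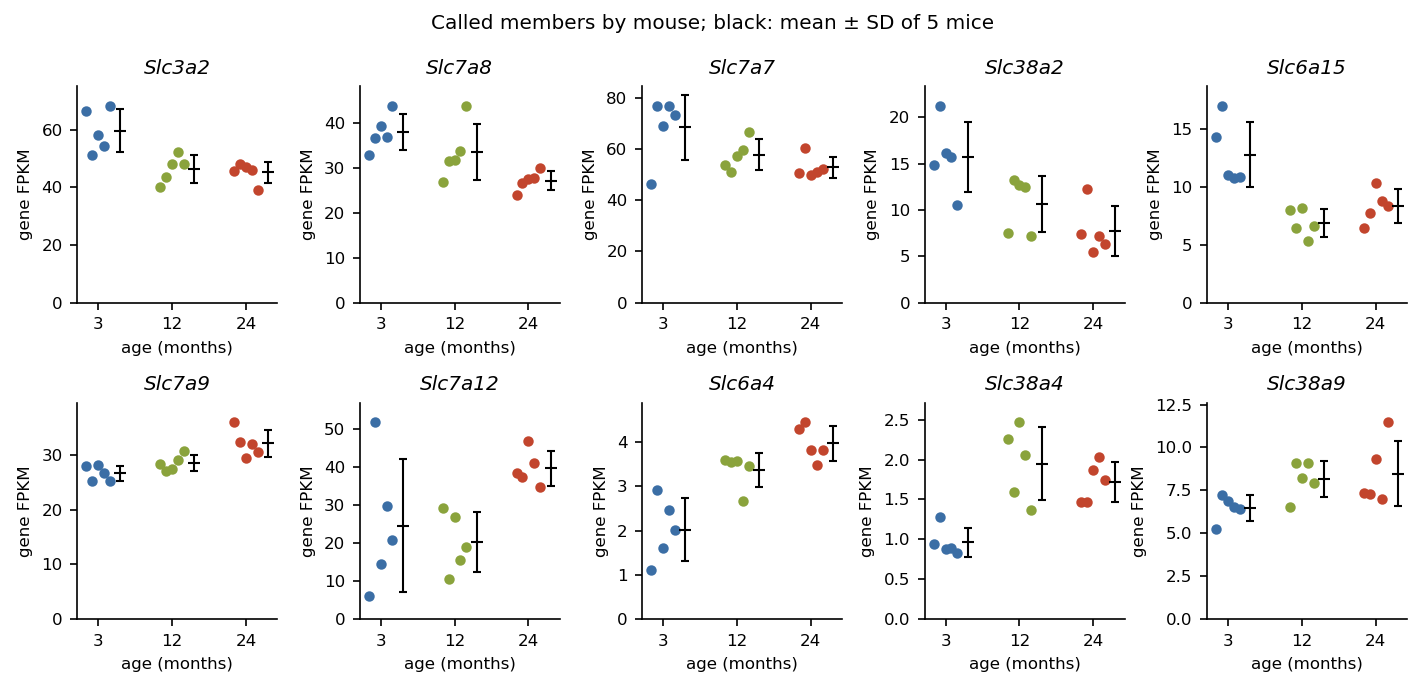
Gene FPKM in each mouse at 3, 12 and 24 months for 10 members called in at least 1 comparison; points are mice, and the black mark and bar give the mean and SD of 5 mice, with axes from 0. The upper row holds the 5 members lower in old than in young mice, and the lower row holds members called higher, where Slc7a12 was called against 12 months only.

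At 12 against 3 months, 7 of 71 members were called higher (9.86%) and 3 lower (4.23%), against 11.4% and 2.9% of 31637 genes. The 3 lower members were Slc6a15, Slc3a2 and Slc38a2. None of the 71 passed an adjusted p under 0.05, against 0.25% of all genes, and with quantile normalization the members split into 5 higher and 6 lower and all genes into 1949 and 1777. The higher members were Slc38a4, Slc1a7, Slc6a4, Slc7a6os, Slc38a9, Slc6a19os and Slc6a7. On reference-matching transcripts alone the log2 fold change was 0.016 for Slc6a4 and 0.12 for Slc38a9, and neither was called. The Slc6a7 call was lost with quantile normalization and without 12-month replicate 20 or young replicate 5, 6 or 8. Slc6a19os, a non-coding gene opposite Slc6a19, had 0.673 ± 0.422 FPKM at 3 months and 1.35 ± 0.334 at 12 months (adjusted p = 0.26), and its call was lost with quantile normalization and without 12-month replicate 18.

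At 24 against 12 months, 3 of 72 members were called higher (4.17%) and 1 lower (1.39%), against 3.07% and 3.36% of 32282 genes. None passed an adjusted p under 0.05, as 0.0031% of all genes did. Slc7a12 (Asc-2, a light chain for small neutral amino acids that pairs with neither known heavy chain) read 29.3, 10.6, 27, 15.5 and 19.1 FPKM at 12 months and 38.4, 37.3, 47.0, 41.2 and 34.9 at 24 months. The groups did not overlap, and the log2 fold change was 1.01 ± 0.24 (SE; adjusted p = 0.59). The young mice read 6.02, 51.9, 14.6, 29.7 and 20.8 FPKM, from below the lowest 12-month-old mouse to above the highest old one, and old against young mice did not pass (adjusted p = 0.36). The others were Slc1a2 and Slc7a9, both higher, and Slc7a8, lower. In FPM the log2 fold change of Slc1a2 was -0.025 and was not called. On reference-matching transcripts alone that of Slc7a9 was -0.23. The Slc7a9 call was lost there, in FPM, with the filter on low values, with the robust prior and without old replicate 31 or 32 or 12-month replicate 17, 18 or 19.

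Counted as FPM, 9 members were called higher and 6 lower in old against young mice, against 11.5% and 3.45% of all genes. Called on both scales and in the same direction were 12 members. Slc38a4 and Slc1a2 lost the call, and Slc6a20b, Slc1a1 and Slc7a3 gained it. Slc7a3 (CAT3, a carrier for cationic amino acids) had a mean of 0.162 FPKM.

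Among 446 transcripts of the members, 4 were called higher and 4 lower in old against young mice with p under 0.05 and a log2 change of more than 1 in size, against 0.465% and 0.33% of 124719 transcripts. None of the member transcripts passed an adjusted p under 0.05. The transcript with the smallest p was an assembled one of Slc6a4, at 0.202 ± 0.284 FPKM in young and 2.73 ± 1.02 in old mice. A reference transcript of Slc7a12 rose from 12.3 ± 6.84 to 23.4 ± 2.24 FPKM, and an assembled one of Slc6a18 from 0.837 ± 1.14 to 3.35 ± 2.16. An assembled transcript of Slc6a6 fell from 17.9 ± 15.6 to 2.74 ± 0.979 FPKM, a reference transcript of Slc6a19 from 8.72 ± 4.27 to 3.04 ± 1.05 and one of Slc6a18 from 8.41 ± 6.08 to 1.92 ± 1.71. The Slc6a6 transcript, of 12550 bases, read 32.5, 7.08, 37.1, 8.12 and 4.54 FPKM in the young mice. As FPM over the gene, Slc6a6 had a log2 fold change of -0.0014 in old against young mice. The part of read placement among its transcripts in this fall was not tested. Among the genes named here (Slc6a4, Slc7a12, Slc6a18, Slc6a6 and Slc6a19), only Slc6a4 was called as a sum in old against young mice.

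Circular RNAs gave another readout of 16 of the member genes. In most of them a later exon is spliced back to an earlier one, while 2 of the 27 tested (1 of Slc15a4 and 1 of Slc3a1) are listed as ciRNA, the class made from introns. Of 27 member circles tested with edgeR in old against young mice, 5 were lower and 0 higher at an adjusted p under 0.05, against 6.61% and 6.66% of 11924 circles. At an unadjusted p under 0.05 there were 8 of the 27, against 1744 higher and 1696 lower of all circles, and DESeq2 called 6 lower and 0 higher, against 991 and 890. Back-splice junctions of 3 of the 5 are shown, from the GENCODE M21 transcripts, because these 30 bases tell the circle from the linear RNA. The end of the last exon is in lower case and the start of the first exon in capitals.
Slc7a8 circRNA422: ctgccatctgtttgtGGAACATCATTGGCT
Slc6a18 circRNA5716: aaggtgcctggacagGGGCCTTCCTCATCC
Slc15a4 circRNA792: gtcatacagattttgTGAAGGCCTTGGAGT
The Slc7a8 circle joins exon 3 to exon 2 of an 11-exon transcript (chr14:54758439-54759745, minus strand, GRCm38) and is 357 bases long. The Slc6a18 circle joins exon 7 to exon 2 of 11 (chr13:73669926-73675862, minus strand). The Slc15a4 circle joins exon 7 to exon 3 of 8 (chr5:127600420-127604706, minus strand). These 3 circles lie in coding exons.

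The Slc7a8 circle read 74.6, 96.4, 92.1, 77.4 and 82.8 CPM (counts scaled to equal totals of the circle table) in the young mice, 48.8, 71.6, 69.4, 98 and 94.6 at 12 months and 50.1, 61.5, 54.5, 40.9 and 54.3 in the old mice. Old and young mice did not overlap, as for the linear RNA of Slc7a8. The edgeR log2 fold change was -0.70, with an adjusted p of 0.00254. The Slc6a15 circle of exons 2 to 8 had 70.4 ± 24.9 CPM at 3 months, 39.6 ± 3.09 at 12 months and 37.8 ± 2.02 at 24 months, with a log2 fold change of -0.90 and an adjusted p of 0.00698. In young replicates 5 to 9 it read 114, 59.6, 58.8, 52.6 and 66.9 CPM. The Slc6a18 circle had 440 ± 59.4, 328 ± 38.8 and 313 ± 22.2 CPM, with a log2 fold change of -0.50 and an adjusted p of 0.00807. The sum of the linear Slc6a18 transcripts, whose span reaches into Slc6a19, was not called. The shorter Slc6a15 circle (log2 fold change -0.86, adjusted p = 0.022) and the Slc15a4 circle (-0.31, adjusted p = 0.049) were named after their values were seen, and Slc15a4 is a histidine and peptide carrier of the lysosome. The shorter Slc6a15 circle lies inside the longer one and shares its end. It read 21.2, 13.1, 8.98, 8.75 and 11.7 CPM in young replicates 5 to 9, so replicate 5 was the highest young mouse in both.

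The 5 circles of Slc3a1 were not called. The intronic one had a log2 fold change of -0.30, and the other 4 lay between -0.0071 and 0.04. Summed over the circles of a gene, the estimated counts came to a median of 22.3% of the reads that the linear coverage implies at 150 bases a read, from 8.88% for Slc38a9 to 104% for Slc43a2. Such shares are given because the sources do not say which reads the circle values count, and whether reads of linear exons are among them was not tested.

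**Figure D5:**
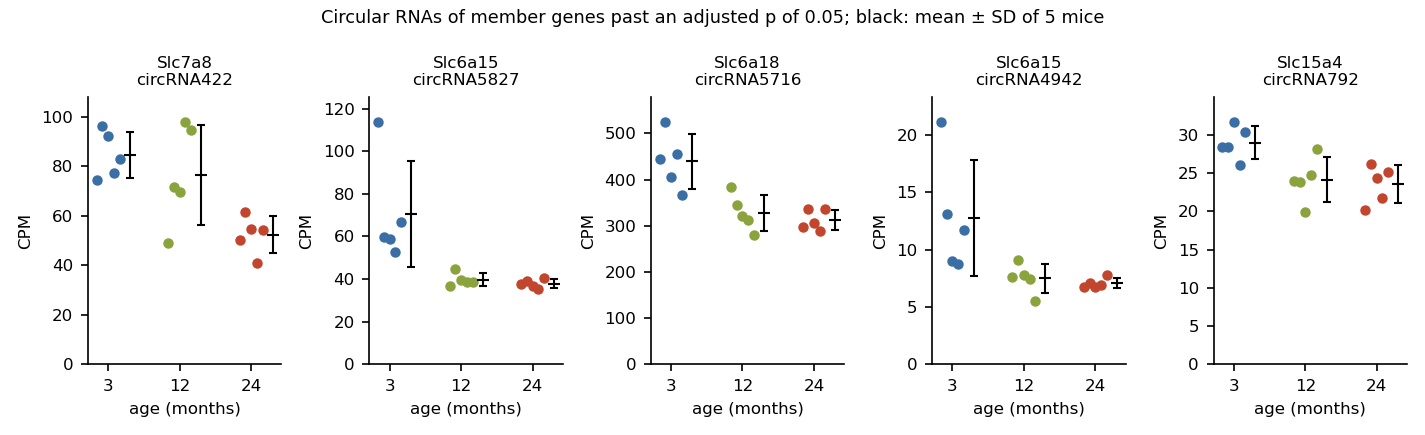
CPM of the circle table in each mouse for the 5 member circles past an adjusted p of 0.05, at 3, 12 and 24 months; the black mark and bar give the mean and SD of 5 mice, with axes from 0. The Slc7a8 circle has 84.7 ± 9.36 CPM in young and 52.3 ± 7.53 in old mice.

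Some markers of other cells in the kidney were called as well. In old against young mice, 2 of 3 fibroblast markers (Pdgfrb and Dcn), 2 of 3 B and plasma cell markers, 1 of 3 endothelial, 1 of 3 T cell and 1 of 3 adrenal markers (Star, with Cyp11b1 and Cyp11a1 at or near 0 in all mice) were called higher, and 1 of 3 intercalated cell markers lower. Markers of the thick limb, distal convoluted tubule, principal cells, podocytes, macrophages and fat cells had 0 calls. Of all genes, 11.4% were called higher and 3.47% lower at this comparison. Fibroblast markers summed to 12.6 to 31.1 FPKM in the young and 24.5 to 40.6 FPKM in the old mice. The part of these cells in the calls of Slc6a4, Slc38a4 and the other low members was not tested.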

How the data were processed

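Kidney RNA of 15 mice was sequenced, 5 at each age. The labels describe removal of ribosomal RNA and a stranded kit, while the methods of the study describe oligo(dT) beads and a library from pooled RNA. The files hold a column for each mouse. The authors removed adapters (Cutadapt), aligned the reads to the GRCm38 genome (HISAT2, with Bowtie2 also named), assembled and merged transcripts with StringTie and deposited FPKM and mean coverage for each transcript (the submitters' processing notes name TopHat2 and StringTie). The authors also deposited estimated counts of circular RNAs, whose making is not given in the sources used here and of which 83.6% to 94.6% per mouse were not whole (tolerance 1e-09). They were rounded before testing. Their totals ranged from 6974490 to 9889970.

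FPKM were summed per gene over class codes =, c, j and o. StringTie shares reads among overlapping transcripts, so a gene's sum depends on the lengths it fills. FPM (the sum of FPKM times length in kb) were added as an alternative after seeing the data. Ratios of coverage to FPKM gave the aligned bases of each library. The values hold no counts of single genes, so the precision is the spread of 5 mice.

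Genes were fitted with limma 3.58.1 (trend) in R 4.3.3 on log2(FPKM + 1), which understates changes of low genes, using genes above 0 in at least 1 mouse compared. Circular RNAs above 0 in at least 5 of 10 mice were fitted with edgeR 4.0.16 (TMM, quasi-likelihood), with DESeq2 1.42.0 as the alternative. Single ratios used exact permutation over 252 assignments, with p-values adjusted over 8 ratios. A gene of the lists with its ratio, and a junction sequence, are not reported here. The limma fit of genes and the edgeR fit of circles, both at 24 against 3 months, were tested on simulated data. Promoter windows were RefSeq's, with 53 of 72 member symbols matched.

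Members and lists were chosen with earlier results of these data known. Named genes were the 10 highest members, the up to 6 called members of smallest p per comparison and direction, a textbook renal set, and the up to 3 transcripts and circles of smallest p per direction. Slc6a14, Slc7a3 and Slc15a4 were named after their values were seen. Alternatives were other pseudocounts, filters, scalings, a joint fit, a robust prior, reference-matching transcripts only (class code =), stricter calls and each mouse left out in turn.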

Additional observations from a re-analysis of the deposited data

Results flagged for a closer look

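Among 31 named members at 3 ages (93 groups of 5 mice), 8 groups held a mouse far from the other 4, where chance gives about 1 in 20. Of the old mice, replicate 32 had 12.3 FPKM of Slc38a2 against 5.45 to 7.38 in the others and 60.2 FPKM of Slc7a7 against 49.9 to 52.3. Replicate 35 had 39 FPKM of Slc3a2 against 45.7 to 48, and replicate 33 had 21.2 FPKM of Slc6a13 against 27.3 to 28.6. Of the young mice, replicate 5 had 46.2 FPKM of Slc7a7 against 68.9 to 77, replicate 6 had 1.28 FPKM of Slc38a4 against 0.832 to 0.945, and replicate 9 had 58.8 FPKM of Slc6a8 against 42.3 to 45.3. Of the 12-month-old mice, replicate 20 had 2.67 FPKM of Slc6a4 against 3.46 to 3.59.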

How the results depend on the processing

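No paired analysis was possible because the ages share no replicate numbers. Over 28 single-gene calls, 499 alternative values were computed, of which 411 kept direction and call, 83 kept direction only and 5 reversed, and 10 calls held under all alternatives that gave a value. Slc7a8, Slc3a2, Slc38a2 and Slc6a15 kept their call of old against young in all 18. Reference-matching transcripts alone reversed Slc7a9 (-0.24 against 3 months, -0.23 against 12 months), Slc6a4 (-0.084) and Slc38a9 (-0.011) at 24 months, and FPM reversed Slc1a2 at 24 against 12 months (-0.025). The causes were not tested.

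At 24 against 3 months, 5 members were higher with quantile normalization, 1 higher and 1 lower at an adjusted p under 0.05, and 0 and 0 above a log2 fold change of 1. At 12 against 3 months, 6 were lower with quantile normalization, and 0 were called in either direction by both stricter rules. At 24 against 12 months, all genes split into 990 higher and 1085 lower with FPKM, 1526 and 689 with TPM, 1127 and 941 with quantile normalization and 1038 and 1101 with FPM. For the members TPM gave 5 higher and 0 lower, quantile normalization 0 lower, FPM 2 lower, an adjusted p under 0.05 0 and 0, and the fold limit 1 higher and 0 lower. Leaving out 1 mouse gave 5 to 9 higher and 4 to 6 lower at 24 against 3 months (5 higher without young replicate 5), 6 to 8 and 2 to 5 at 12 against 3 months (5 lower without young replicate 5 or 12-month replicate 21), and 2 to 5 and 0 to 2 at 24 against 12 months (5 higher without old replicate 34, and 0 lower without old replicate 31, 33 or 34 or 12-month replicate 18, 19 or 20).

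A pseudocount of 0.1 gave 9 higher and 12 lower transcripts, against 3952 and 2147 of 124719. Leaving out 1 mouse gave 1 to 6 higher (1 without young replicate 5) and 4 to 7 lower transcripts (7 without young replicate 5 or 9), and 0 higher and 3 to 6 lower circles (3 without old replicate 31 or 33). The log2 difference of the ratio Slc7a9/Slc3a1 was 0.40 in FPM, with an exact permutation p of 0.0079 unadjusted and 0.063 adjusted, and leaving out 1 mouse gave -0.83 to -0.18 on the FPKM scale. Slc7a13/Slc3a1 ranged from -0.96 (without old replicate 34, exact permutation p = 0.048) to -0.20. Slc7a9/Slc3a1 and Slc7a13/Slc3a1 had no value on reference-matching transcripts alone, since Slc3a1 was listed at 0 there in some mice. Depth limited members below 0.1 FPKM, where a few reads set each value.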

Other observations

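Not only Slc3a1 had its reads placed on different transcripts from mouse to mouse. For Slc6a6, an assembled transcript of 12550 bases held 32.5, 37.1 and 42.5 FPKM in young replicates 5 and 7 and 12-month replicate 19 and at most 8.12 FPKM in the other 12 mice. For Slc6a20b, the pooled SD within ages was 0.46 on the log2 FPKM scale and 0.19 on the log2 fragments scale, a ratio of 2.44, and for Slc6a6 the ratio was 1.83. For Slc7a9 it was 0.44, with the smaller spread in FPKM.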
